A study of Mus musculus with 19 samples.

Results

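Knockdown of the long non-coding RNA Evx1as was examined at day 4 of differentiation in 3 RNA-seq libraries of the 19 in the series. They were chosen by their labels: 2 shEvx1as libraries, replicates 1 and 2, carried a short hairpin against Evx1as, and 1 library, shCtrl_Evx1as, carried a control hairpin. All 3 came from the mouse embryonic stem cell line CJ7 (strain 129S4/SvJae), grown for 4 days in medium with 15% heat-inactivated FCS and no LIF, the cytokine that holds such cells undifferentiated. The values are FPKM, fragments scaled to the length of the transcript and the mapped fragments of the library, and the description runs over the 14942 of 38424 entries in the table that reached at least 1 FPKM in at least 2 of the 19 libraries. The hairpin sequences and the selection of hairpin-carrying cells are not stated in the sources used here, and the labels do not say whether the numbered libraries are separate cultures, separate hairpins or repeats. With 1 control library, the spread used by every test came from the replicate pairs of the whole series, so a p-value speaks of the scatter among libraries and not of separate cultures. Pairs of shEvx1as values are those of replicate 1 and then replicate 2, and unadjusted p-values are limma's.

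The study compared cells in which divergent lncRNAs had been knocked down with control cells during differentiation, and asked which genes differed. The other LIF-withdrawal experiments, used below only for contrast, were made in CJ9 cells: 2 shEVX1 libraries against 1 control at day 4, 2 shFendrr against 2 controls at day 5, and 1 shLhx1os against 1 control at day 6. The remaining 7 libraries came from retinoic acid cultures.

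Evx1 encodes a homeodomain transcription factor of the primitive streak, the furrow of the gastrulating mouse embryo through which epiblast cells leave to form mesoderm and endoderm. Streak cells are induced by Nodal, Wnt and BMP signals and are marked by the T-box factors T (brachyury) and Eomes and the homeodomain factor Mixl1, and the anterior end of the streak gives rise to the organizer and the definitive endoderm, marked by Gsc, Lhx1, Foxa2 and Sox17. Evx1as is transcribed from the opposite strand. It starts within the Evx1 gene, crosses the 5′ end of that gene and then runs away from it.

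In RefSeq on GRCm38.p6 the lncRNA, named Evx1os there, spans chr6:52308389-52314832 on the minus strand, and Evx1 spans chr6:52313498-52318389 on the plus strand. The 5′ ends of the genes thus overlap over 1335 bases. The windows from 250 bases before to 50 bases after each start are shown because the pair of starts is the site of the targeted RNA. Capitals mark the letters found in a search for 6 short motifs on both strands. The first lies at chr6:52314783-52315082 (minus strand) and the second at chr6:52313248-52313547 (plus strand).
Evx1os promoter: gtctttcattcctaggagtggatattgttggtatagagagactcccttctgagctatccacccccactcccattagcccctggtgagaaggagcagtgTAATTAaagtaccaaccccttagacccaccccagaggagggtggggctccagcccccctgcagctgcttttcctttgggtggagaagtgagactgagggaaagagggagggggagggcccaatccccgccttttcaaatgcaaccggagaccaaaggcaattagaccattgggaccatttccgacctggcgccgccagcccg
Evx1 promoter: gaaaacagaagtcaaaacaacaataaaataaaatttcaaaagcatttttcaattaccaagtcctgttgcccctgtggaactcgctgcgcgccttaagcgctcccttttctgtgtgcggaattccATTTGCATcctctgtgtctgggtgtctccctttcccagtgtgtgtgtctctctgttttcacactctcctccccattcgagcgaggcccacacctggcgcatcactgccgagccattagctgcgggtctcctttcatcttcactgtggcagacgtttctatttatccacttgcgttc
The Evx1os window held the homeodomain core TAATTA, which 5.29% of 32544 RefSeq promoter windows of the same length hold. The Evx1 window held the octamer ATTTGCAT, the form bound by POU factors such as Oct4, which 1.75% hold. Neither window held the T-box letters TCACACC (3.95% of windows), the FOXH1 letters AATCCACA (0.854%), the forkhead letters TGTTTAC (3.66%) or the TCF/LEF letters CTTTGAT (3.73%). None of the matches overlapped another motif. A match of letters is a description of the window and not a bound site.

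The table carries the lncRNA under the name 5730457N03Rik (mm9 chromosome 6, 52258383 to 52264826). It was at 0.354 FPKM in shEvx1as replicate 1 and 0.290 FPKM in shEvx1as replicate 2, against 1.66 FPKM in the control, that is 21.3% and 17.5% of the control level. Both knockdown libraries lay below the control, by almost the same amount (log2 change -1.01 ± 0.20 SE, unadjusted p = 0.000358), but the difference did not pass over all entries (adjusted p = 0.728 by limma with Benjamini-Hochberg adjustment). The entry was at 3.03 to 10.4 FPKM in the other 4 LIF-withdrawal controls, above every library of the Evx1as experiment. Evx1 itself (mm9 chromosome 6, 52263492 to 52268372) was at 5.43 FPKM in shEvx1as replicate 1 and 1.57 FPKM in shEvx1as replicate 2, against 6.71 FPKM in the control. The 2 knockdown libraries stood at 80.9% and 23.3% of the control level, with an unadjusted p of 0.0839 for their mean (adjusted p = 1 by limma). The entries of Evx1 and 5730457N03Rik overlap on mm9 by 1335 bases as well, and the sources used here do not say whether counting used strand, so reads in the overlap may be shared between them.

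The FPKM totals of the libraries, which do not measure depth, were 651997 and 655315 in shEvx1as replicates 1 and 2 and 651717 in the control, and 12565 and 12658 entries in shEvx1as and 12478 in the control reached 1 FPKM. The sources used here do not give absolute depth, but the steps between low values put the depth of shEvx1as at 1.14 and 1.33 times the control. At 20.8% and 17.2% of the loci compared the values lay within 0.02 log2 of that step. The cell type was checked against markers. Pou5f1 (Oct4), the pluripotency factor, was at 696 and 727 FPKM in shEvx1as and 689 FPKM in the control, and T at 105 and 25.9 FPKM in shEvx1as and 143 FPKM in the control. Sox1 and Pax6, factors of the neural plate, reached at most 2.92 FPKM. Of the blood and endothelial markers, Tal1 and Gata1 were at or under 0.694 FPKM, while Pecam1 was at 5.82 and 10.7 FPKM in shEvx1as and 4.44 FPKM in the control. Of the feeder or fibroblast markers, Lum was at or under 0.0192 FPKM, while Thy1 was at 16.5 and 13.2 FPKM in shEvx1as and 11.6 FPKM in the control, and Col1a1 at 8.70 and 4.05 FPKM in shEvx1as and 7.06 FPKM in the control. The summed feeder or fibroblast markers came to 26.2 and 17.7 FPKM in shEvx1as and 19.9 FPKM in the control, and their part in the results was not tested.

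Across all 14942 entries, 1 passed the test (0.00669%) by limma with Benjamini-Hochberg adjustment. It was the unnamed assembled locus XLOC_010621 (mm9 chromosome 17, 83944375 to 83955584), which fell in shEvx1as: the knockdown libraries held 0.00840 and 0.122 FPKM, while 3.25 FPKM was found in the control (log2 change -2.0 ± 0.17, adjusted p = 0.00171 by limma). Of the other 16 libraries, the day-6 control of the Lhx1os experiment held it at 2.44 FPKM. It was at or under 0.0357 FPKM in the remaining 15, which include every other replicate pair, and the call was lost with a pseudocount of 0.1 (adjusted p = 0.447), in the 6 day-4 libraries alone (0.179) and against both day-4 controls together (0.382). At an unadjusted p under 0.05, 238 entries were lower in shEvx1as (1.59%) and 416 were higher (2.78%). This split turned to 364 lower and 286 higher under median-of-ratios scaling and to 367 and 253 when libraries were scaled without 3 abundant unnamed loci. Those 3 loci (XLOC_014354, XLOC_008971 and XLOC_008036) took 3.73% and 3.18% of the FPKM total in shEvx1as, against 8.47% in the control. Their part in the split was not tested beyond that scaling. In simulated data with this layout the test recovered 58.2% of 2-fold and 96.8% of 4-fold changes. The simulation used normal noise, with the same spread for an entry in every library, the single control included. Changes were planted only in entries of higher mean level and were equal in both shEvx1as libraries. These rates therefore need not hold for the real libraries, whose replicates differ in size of effect. An exact permutation test within the experiment, 2 libraries against 1, cannot give a p under 0.333.

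By size, 27 of the 8697 entries that reached 5 FPKM in any of the 3 libraries were at least 2-fold lower in both shEvx1as libraries (0.31%), and 31 were at least 2-fold higher in both (0.356%). Among the 27 were 14 protein-coding genes: the developmental regulators Lhx1, Foxa2, Cxcr4 and Dll3, the mitochondrial genes Sdhaf1 and Lars2, and 8 histone genes. The 31 higher entries held 3 protein-coding genes, Anxa1, Nup62cl and Timm9, with 16 unnamed loci. The knockdown libraries reached these limits unequally: 48 entries were at least 2-fold lower and 48 higher in replicate 1 alone (0.552% each), and 143 (1.64%) and 145 (1.67%) in replicate 2 alone. The control library often gave an extreme value for these entries. It held the highest of all 19 values for 15 of the 27 lower entries (55.6%), against 1.67% of the 8697 entries. For the 31 higher entries it held the lowest value for 3 (9.68%, against 3.28%). Both sets were selected on this same control value, so these shares are in part fixed by the selection.

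Genes of the primitive streak and presomitic mesoderm mostly lay below the control in shEvx1as, and further below it in replicate 2. Of 28 listed genes 27 were tested: 20 lay below the control in both shEvx1as libraries, where 26.3% of all entries did, 2 lay above it in both, and none passed the adjusted test, with 6 lower and 0 higher at an unadjusted p under 0.05. The median log2 change of the list was -0.73, against 0.05 over all entries tested, and was -0.28 in replicate 1 and -0.86 in replicate 2. It ranged from -0.72 to -0.78 under the scalings tried, and was -1.65 against the other day-4 control alone. In bulk RNA, fewer streak cells and less RNA per streak cell cannot be told apart.

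Among the streak transcription factors, Mixl1 stood at 10.5 and 1.84 FPKM in shEvx1as and 19.6 FPKM in the control (log2 change -1.85 ± 0.64, unadjusted p = 0.0144). T stood at 105 and 25.9 FPKM in shEvx1as and 143 FPKM in the control (-1.43 ± 0.83, unadjusted p = 0.114). Eomes, which is needed for the cells to leave the epiblast as mesoderm and endoderm, stood at 30.4 and 19.1 FPKM in shEvx1as and 40.6 FPKM in the control. For all 3 factors both knockdown libraries lay under the control, with replicate 2 the lower, and adjusted p was 1 by limma. Mesp1, which marks the first cardiac mesoderm, stood at 3.39 and 0.249 FPKM in shEvx1as and 6.77 FPKM in the control, or 50.1% and 3.69% of its level (-1.73 ± 0.71, unadjusted p = 0.0326, adjusted p = 1 by limma). Sp5, a Wnt target in the streak, stood at 127 and 42.2 FPKM in shEvx1as and 168 FPKM in the control. Msgn1, a presomitic mesoderm factor, was at 0.721 FPKM in replicate 1 and listed at 0 in replicate 2 of shEvx1as, against 1.36 FPKM in the control.

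Signalling genes of the streak lay on either side of the control. Fgf8, a growth factor that drives cells out of the streak, stood at 61.2 and 18.2 FPKM in shEvx1as and 105 FPKM in the control (-1.61 ± 0.77, unadjusted p = 0.0607). Dll3, a Notch ligand-like protein made in presomitic mesoderm, stood at 5.74 and 2.97 FPKM in shEvx1as and 12.1 FPKM in the control (-1.34 ± 0.37, unadjusted p = 0.00415). Cyp26a1, the enzyme that clears retinoic acid from the tail end, stood at 5.90 and 1.98 FPKM in shEvx1as and 10.01 FPKM in the control (-1.28 ± 0.46, unadjusted p = 0.0182). Adjusted p was 1 by limma for each of these 3 genes. Both knockdown libraries lay below the control in all 3, as they did for 26.3% of all entries, with 44.6% above it in both. The Wnt ligand Wnt3 lay on both sides of the control, at 30.6 and 16.2 FPKM in shEvx1as and 26.9 FPKM in the control. Dll1, a Notch ligand, lay above it at 1.23 and 2.37 FPKM in shEvx1as and 0.997 FPKM in the control, as did Lfng, which modifies Notch, at 11.7 and 11.1 FPKM in shEvx1as and 9.74 FPKM in the control.

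**Figure D1:**
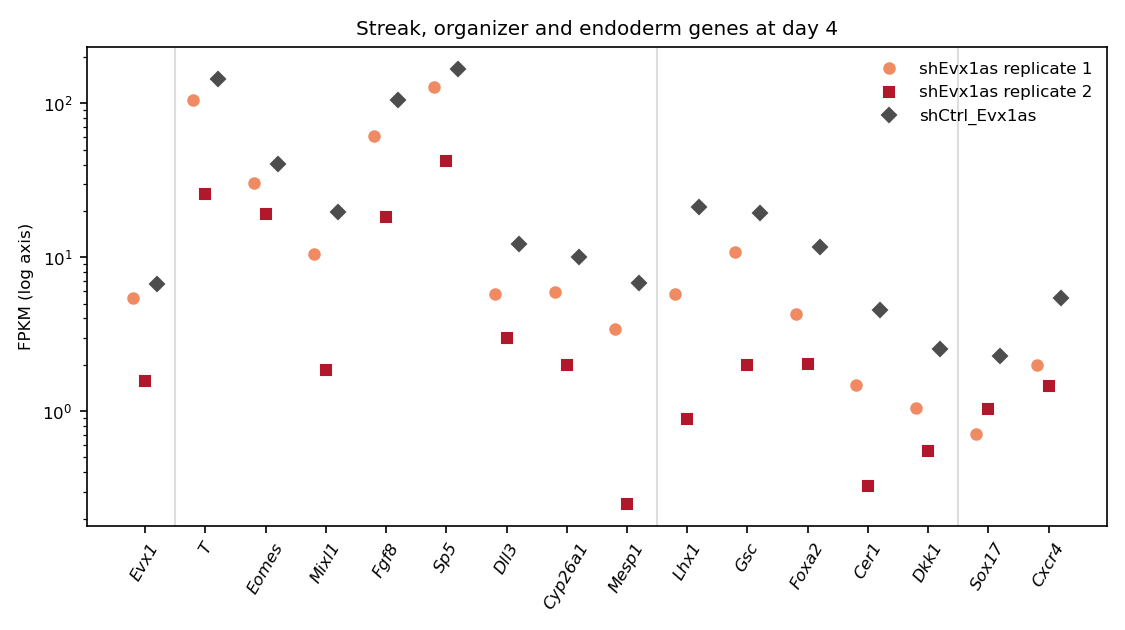
FPKM (log axis) of 16 genes in shEvx1as replicate 1 (circles), shEvx1as replicate 2 (squares) and shCtrl_Evx1as (diamonds), 1 point per library; from left to right Evx1, streak, organizer and endoderm genes. The genes shown were chosen with earlier results known. Genes of the same lists that lay otherwise, such as Wnt3, Dll1, Lfng and Nog, are left out. Within this choice the control is the highest point for every gene, and replicate 2 is the lowest for all but Sox17.

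Organizer genes mostly lay below the control. Lhx1, a LIM homeodomain factor needed for the organizer and head, stood at 5.80 and 0.885 FPKM in shEvx1as and 21.3 FPKM in the control, which is 27.2% and 4.16% of the control level (log2 change -2.64 ± 0.67, unadjusted p = 0.00234, adjusted p = 0.897 by limma). This was the largest log2 change among the 15 named genes furthest below the control. Gsc (goosecoid), a homeodomain factor of anterior streak cells, stood at 10.8 and 1.98 FPKM in shEvx1as and 19.3 FPKM in the control (-1.77 ± 0.63, unadjusted p = 0.0166). Foxa2, a forkhead factor of axial mesoderm and endoderm, stood at 4.28 and 2.01 FPKM in shEvx1as and 11.6 FPKM in the control (-1.66 ± 0.44, unadjusted p = 0.00327, adjusted p = 0.987 by limma). All 3 genes were lower in both knockdown libraries than in the control.

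Several secreted antagonists are among the organizer genes. Cer1, which binds Nodal, BMP and Wnt ligands, stood at 1.47 and 0.327 FPKM in shEvx1as and 4.55 FPKM in the control (-1.61 ± 0.36, unadjusted p = 0.000854, adjusted p = 0.729 by limma). Dkk1, a Wnt inhibitor, stood at 1.05 and 0.547 FPKM in shEvx1as and 2.54 FPKM in the control (-0.99 ± 0.25, unadjusted p = 0.00223). Lefty1, a Nodal antagonist, stood at 43.8 and 34.1 FPKM in shEvx1as and 56.3 FPKM in the control. Nog, a BMP antagonist, was at 4.60 and 3.53 FPKM in shEvx1as and 4.56 FPKM in the control, with replicate 2 alone below it. Of 16 listed organizer genes 13 were tested. In both shEvx1as libraries 11 lay below the control, where 26.3% of all entries did, and 1 above it, where 44.6% did. At an unadjusted p under 0.05 by limma 5 were lower, where 1.59% of all entries were, and 0 were higher. The median log2 change was -0.44. That median turned to 0.13 against the other day-4 control alone, where Foxa2 was at 1.28 FPKM and Cer1 at 0.339 FPKM.

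Definitive endoderm genes also lay mostly below the control, with replicate 2 not always the lower. Of 16 tested, 10 lay below the control in both shEvx1as libraries and 2 above it in both, against 26.3% and 44.6% of all entries. The median log2 change was -0.50, and it was 0.03 against the other day-4 control alone. Foxa2, Foxa1 and Cer1 are in both this list and the organizer list, so the counts of these lists are not separate. Sox17, the HMG-box factor of endoderm, stood at 0.712 and 1.03 FPKM in shEvx1as and 2.26 FPKM in the control (-0.81 ± 0.30, unadjusted p = 0.0213). Cxcr4, a chemokine receptor used to mark definitive endoderm, stood at 2.00 and 1.45 FPKM in shEvx1as and 5.46 FPKM in the control, and Gata6 stood at 2.03 and 2.88 FPKM in shEvx1as and 5.06 FPKM in the control. Hhex, a foregut factor, was at 6.23 and 6.93 FPKM in shEvx1as and 6.95 FPKM in the control. Of the lateral and cardiac mesoderm genes, 13 of 19 tested lay below the control in both libraries (median -0.28).

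The 2-fold list and the ranked genes in the lower direction were shared between these regulators and another group. Histone entries made up 8 of the 15 named genes furthest below the control. Hist1h4f stood at 0.894 and 2.30 FPKM in shEvx1as and 12.2 FPKM in the control. Hist1h4c stood at 1.79 and 2.30 FPKM in shEvx1as and 7.11 FPKM in the control (-1.42 ± 0.28, unadjusted p = 0.000334, adjusted p = 0.728 by limma). Replication-dependent histone messages end in a stem-loop and mostly lack a poly(A) tail, and these libraries were made from RNA purified on oligo-dT beads. Rpph1, the RNA of ribonuclease P, also without a poly(A) tail, stood at 5.54 and 4.08 FPKM in shEvx1as and 16.6 FPKM in the control, and Rmrp, the RNA of ribonuclease MRP, stood at 233 and 265 FPKM in shEvx1as and 474 FPKM in the control. The control held the highest of the 19 values for each of these 4 entries. Over all 56 histone entries tested, a family picked after its values were seen, 36 lay below the control in both shEvx1as libraries and 6 above it in both. The shares over all entries were 26.3% and 44.6%. The control was the highest of 19 libraries for 18 histone entries. It was the highest for 1.67% of the 8697 entries with at least 5 FPKM, a level that 43 of the 56 reached. The summed level of the 56 was 2209 and 1765 FPKM in shEvx1as and 2238 FPKM in the control. Many copies are nearly identical, so single entries are uncertain. The part of RNA purification in these differences was not tested.

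The other 2 protein-coding genes of the 2-fold list serve mitochondria. Lars2, the mitochondrial leucyl-tRNA synthetase, stood at 252 and 220 FPKM in shEvx1as and 624 FPKM in the control (-1.40 ± 0.33, unadjusted p = 0.00153, adjusted p = 0.861 by limma). The control again held the highest of the 19 values. XLOC_014354, an abundant unnamed locus named above, differed in the same direction: 13950 and 11970 FPKM in shEvx1as and 31900 FPKM in the control. Where Lhx1os was knocked down, both entries instead exceeded the matching day-6 control. Lars2 was 433 there against 255 FPKM, and the locus 23600 against 13600 FPKM. Lars2 and the locus were also high or low together in other libraries. They stood at 475 and 26030 FPKM in shCtrl_EVX1 and at 274 and 15150 FPKM in shEVX1 replicate 1. In shPou3f3os replicate 1 they stood at 44.9 and 2441 FPKM. Whether the Lars2 difference is separate from that of the locus was not tested. Sdhaf1, an assembly factor of succinate dehydrogenase, stood at 1.87 and 1.65 FPKM in shEvx1as and 9.28 FPKM in the control. Its values in the other 16 libraries ran from 0.000524 to 4.69 FPKM, with a median of 0.000777 FPKM. The shFendrr replicates stood at 0.00059 and 1.98 FPKM, so the value of this entry in a single library is uncertain.

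**Figure D2:**
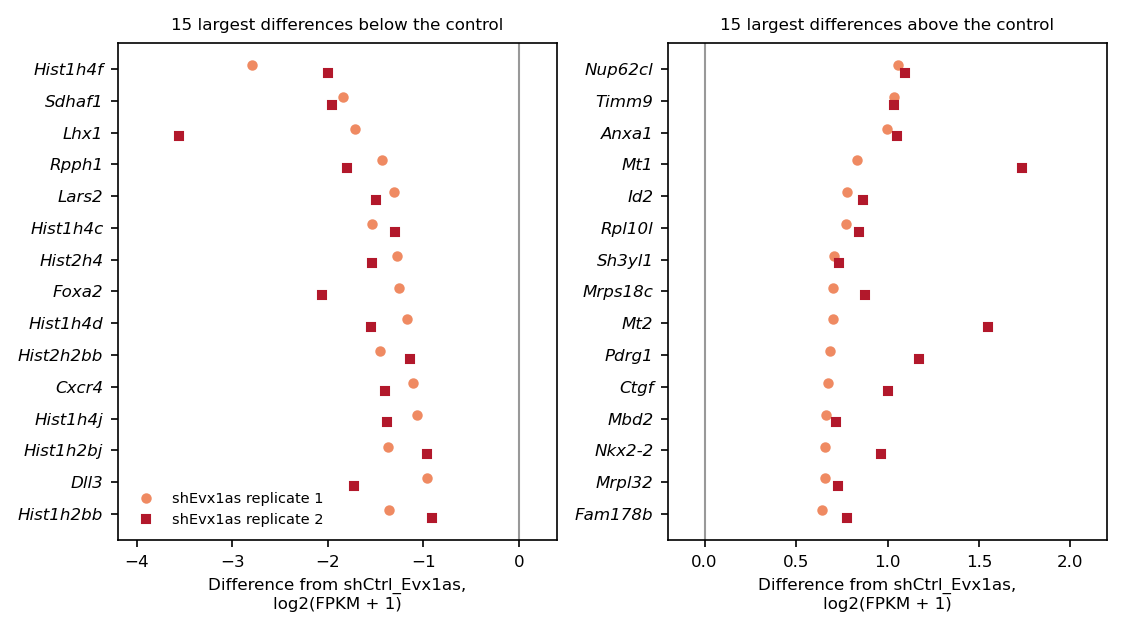
Difference from shCtrl_Evx1as on the log2(FPKM + 1) scale for the 15 named genes furthest below (left) and furthest above (right) the control in both libraries, with shEvx1as replicate 1 as circles and replicate 2 as squares. The widest gap between the replicates is that of Lhx1 on the left and of Mt1 on the right.

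Among the named genes furthest above the control, the metallothioneins, small proteins that bind zinc and copper, were the highest in level: Mt1 stood at 348 and 652 FPKM in shEvx1as and 195 FPKM in the control (log2 change 1.28 ± 0.55, unadjusted p = 0.0395), and Mt2 stood at 732 and 1321 FPKM in shEvx1as and 450 FPKM in the control (1.13 ± 0.48, unadjusted p = 0.0406). Both lay above the control in both knockdown libraries, with replicate 2 the higher, and adjusted p was 1 by limma. Timm9, part of the chaperone complex between the mitochondrial membranes, was at 10.9 FPKM in each shEvx1as library, against 4.81 FPKM in the control, and had the smallest p among the genes furthest from the control (1.04 ± 0.16, unadjusted p = 4.47e-05, adjusted p = 0.223 by limma). The control held the lowest Timm9 value of the 19 libraries, and the other 16 ran from 7.16 to 14.1 FPKM. Anxa1, a phospholipid-binding annexin, stood at 15.2 and 15.8 FPKM in shEvx1as and 7.10 FPKM in the control. Nkx2-2, a homeodomain factor of ventral neural tube and pancreas, stood at 4.87 and 6.25 FPKM in shEvx1as and 2.72 FPKM in the control (0.81 ± 0.19, unadjusted p = 0.00152, adjusted p = 0.861 by limma), and no other library exceeded 0.482 FPKM.

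The pluripotency genes mostly lay above the control by small amounts. Of 21 tested, 15 were higher in both shEvx1as libraries, where 44.6% of all entries were, and 3 were lower in both, with a median log2 change of 0.14 and none at an unadjusted p under 0.05. The median stayed above 0 under every setting tried, between 0.065 and 1.15. Sox2, the HMG-box factor of pluripotent and neural cells, stood at 80.8 and 128 FPKM in shEvx1as and 69.7 FPKM in the control. Fgf4, the FGF of pluripotent cells, stood at 15.4 and 31.6 FPKM in shEvx1as and 11.1 FPKM in the control (unadjusted p = 0.18). Klf2, a naive-state factor, stood at 130 and 176 FPKM in shEvx1as and 96.0 FPKM in the control. Nanog lay below the control, at 82.7 and 65.3 FPKM in shEvx1as and 90.2 FPKM in the control. Primed epiblast genes lay on both sides of the control, with 7 of 13 lower and 4 higher in both libraries (median -0.15); Fgf5 was at 22.0 and 20.4 FPKM in shEvx1as and 28.1 FPKM in the control.

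Ligands, co-receptors and targets of the pathways that induce the streak were looked at in turn. Nodal itself was at 93.6 and 91.8 FPKM in shEvx1as and 88.0 FPKM in the control, and its co-receptor Tdgf1 (Cripto) at 229 and 255 FPKM in shEvx1as and 282 FPKM in the control. Cfc1 (Cryptic), another co-receptor, was at 1.52 and 0.828 FPKM in shEvx1as and 2.83 FPKM in the control. Lefty2, induced by Nodal, stood at 22.4 and 15.8 FPKM in shEvx1as and 32.6 FPKM in the control. Over the Nodal pathway list 8 of 18 tested members lay below the control in both libraries and 7 above it (median -0.09). The shares over all entries were 26.3% below and 44.6% above. In the Wnt list 14 of 30 lay below and 4 above (median -0.16), with Axin2, a general Wnt target, at 23.9 and 15.3 FPKM in shEvx1as and 27.3 FPKM in the control. The ligand Wnt5b was at 5.17 and 2.33 FPKM in shEvx1as and 6.33 FPKM in the control.

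Of 4 tested Id genes, which BMP signals induce, 3 lay above the control in both knockdown libraries. Id1, an inhibitor of bHLH factors, stood at 92.7 and 172 FPKM in shEvx1as and 61.1 FPKM in the control (1.04 ± 0.47, unadjusted p = 0.0505), Id2 stood at 54.2 and 57.8 FPKM in shEvx1as and 31.2 FPKM in the control (0.82 ± 0.31, unadjusted p = 0.0234), and Id3 stood at 80.2 and 120 FPKM in shEvx1as and 59.5 FPKM in the control. Id4 was at 1.84 and 5.24 FPKM in shEvx1as and 1.90 FPKM in the control, with replicate 2 alone above it. Msx1, another BMP target, lay below it at 23.4 and 9.40 FPKM in shEvx1as and 26.5 FPKM in the control, and the median of the 22 tested BMP pathway genes was -0.04. Against the other day-4 control the log2 changes of Id1 and Id2 turned to -0.03 each. In the Notch list, 10 of 18 lay below the control and 6 above in both libraries (median -0.14), against 26.3% and 44.6% of all entries. Hes1, a main Notch target, stood at 25.5 and 19.7 FPKM in shEvx1as and 34.7 FPKM in the control (-0.61 ± 0.22, unadjusted p = 0.0198).

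Genes of other lineages and of general cell functions were counted in the same way. Of 12 neuronal genes tested, 7 were above the control in both shEvx1as libraries and 3 below (median 0.31), where 44.6% of all entries were above and 26.3% below. Nefm, a neurofilament subunit, stood at 33.99 and 41.9 FPKM in shEvx1as and 23.0 FPKM in the control (0.69 ± 0.22, unadjusted p = 0.00828), and Tubb3, neuronal tubulin, at 22.0 and 29.2 FPKM in shEvx1as and 14.9 FPKM in the control (0.73 ± 0.31, unadjusted p = 0.0381). Dlx5, a homeodomain factor of surface ectoderm, stood at 2.69 and 2.59 FPKM in shEvx1as and 1.28 FPKM in the control (unadjusted p = 0.00776), and Gcm1, a trophoblast factor, at 2.42 and 1.49 FPKM in shEvx1as and 0.675 FPKM in the control (unadjusted p = 0.00654). Adjusted p was 1 by limma for these 4 genes. Of 21 tested surface ectoderm and epithelial genes, 7 lay above the control in both libraries, 1 below and 13 were mixed (median 0.04). Of 14 tested trophoblast genes, 8 lay above, 2 below and 4 were mixed (median 0.14). Targets of p53 lay above the control in both libraries for 15 of 20 genes (median 0.26), with Mdm2, the p53 ligase, at 80.5 and 86.2 FPKM in shEvx1as and 59.4 FPKM in the control. Of 20 cell-cycle genes 4 lay below and 9 above the control in both libraries (median 0.08), and of 16 housekeeping genes 3 and 7 (median 0.02); the housekeeping median turned under median-of-ratios scaling, and both turned when libraries were scaled without the 3 abundant loci.

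**Figure D3:**
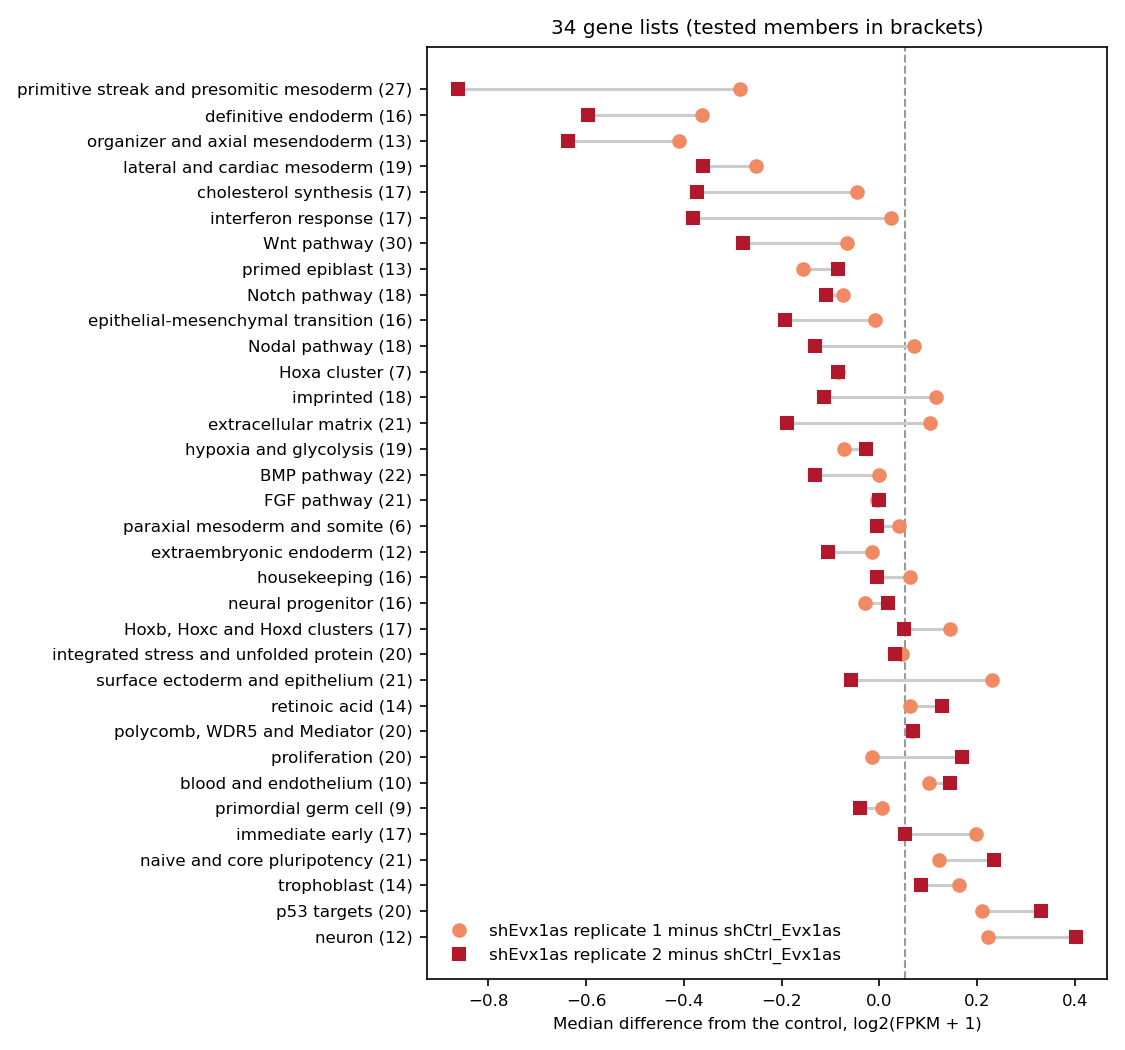
Median difference from shCtrl_Evx1as on the log2(FPKM + 1) scale for each of 34 gene lists, with shEvx1as replicate 1 as circles and replicate 2 as squares; the dashed line is the median over all 14942 entries. The streak, organizer and endoderm lists lie lowest, at -0.28 to -0.86, and replicate 2 lies further from the line than replicate 1 in each of them.

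The shEvx1as libraries were then set against each other, since the streak genes differed between them. For 5730457N03Rik replicate 2 differed from replicate 1 by -0.07 ± 0.24 on the log2 scale (unadjusted p = 0.777). At 0.354 and 0.290 FPKM this entry leaves little room for a difference on the log2(FPKM + 1) scale. The test thus cannot tell whether the knockdown was equal in both libraries. For Evx1 the difference was -1.32 ± 0.42 (unadjusted p = 0.0101). Of all entries 3 passed (0.0201%), and at an unadjusted p under 0.05 replicate 2 was the lower in 2.4% and the higher in 1.68% of entries. All 3 were unnamed loci: XLOC_005172 was at 5.48 FPKM in replicate 1 and listed at 0 in replicate 2 and the control, XLOC_001592 was at 10.1 and 2.16 FPKM in shEvx1as and 2.86 FPKM in the control, and XLOC_024180 was listed at 0 in replicate 1 and the control and at 3.15 FPKM in replicate 2. Entries at least 2-fold apart made up 151 of 8543 with at least 5 FPKM (1.77%), within the 0.684% to 5.73% of the other 6 replicate pairs.

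The named genes that were lowest in replicate 2 relative to replicate 1 included 6 of the streak and organizer genes above. The log2 difference, replicate 2 minus replicate 1, was -2.02 ± 0.43 for Mixl1 (unadjusted p = 0.000935), -1.99 ± 0.43 for Gsc (unadjusted p = 0.000961), -1.97 ± 0.80 for T (unadjusted p = 0.0341) and -1.85 ± 0.56 for Lhx1 (unadjusted p = 0.00861), and adjusted p was 0.513 for the first pair and 1 for the others by limma. Fgf8 and Sp5 were the remaining members. Replicate 2 was below replicate 1 in 23 of the 27 streak genes, and in 7024 of all 14942 entries. At the other end, Lama1, the laminin alpha chain of early basement membranes, stood at 1.44 and 8.18 FPKM in shEvx1as and 2.14 FPKM in the control, and Srgn, a proteoglycan, was at 0.347 and 5.61 FPKM in shEvx1as and 0.263 FPKM in the control. Aard was at 3.27 and 10.5 FPKM in shEvx1as and 2.38 FPKM in the control, with the smallest p of the 20 genes named for this difference (unadjusted p = 5.1e-05, adjusted p = 0.19 by limma). Ttr, made by visceral endoderm, was at 0.783 FPKM in replicate 2 of shEvx1as and listed at 0 in replicate 1 and the control. The Ttr entry did not reach the filter and was not tested. The part of culture stage or hairpin in these differences was not tested.

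Set beside the other LIF-withdrawal experiments, the Evx1as knockdown stood apart from the EVX1 knockdown at several organizer genes, though none passed the adjusted test. In the knockdown of the coding gene at the same day in CJ9 cells, Evx1 RNA was lowered only in part. It was at 30.2 and 37.05 FPKM in shEVX1 and 53.9 FPKM in its control, above every library of the Evx1as experiment. Cer1 was at 7.16 and 4.03 FPKM in shEVX1, against 0.339 FPKM in its control. The difference between the experiments' log2 changes, Evx1as minus EVX1, was -3.87 ± 0.50 for Cer1 (unadjusted p = 9.76e-06, adjusted p = 0.0729 by limma), -3.54 ± 0.62 for Foxa2 (unadjusted p = 0.000151, adjusted p = 0.564) and -3.82 ± 0.95 for Lhx1 (unadjusted p = 0.00199, adjusted p = 1). Lhx1 was at 60.5 and 52.7 FPKM in shEVX1, against 24.3 FPKM in its control. Of all entries, 0 passed this test by limma, with 428 at an unadjusted p under 0.05 (2.86%). Cer1 passed under a variance prior without a trend and without shEvx1as replicate 1. For T the difference was -0.92 ± 1.18 (unadjusted p = 0.452) and for Evx1 -0.25 ± 0.69 (unadjusted p = 0.719). Line and target differ together between these experiments and cannot be told apart.

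Against the mean of the EVX1, Lhx1os and Fendrr changes, again 0 entries passed by limma, with 669 at an unadjusted p under 0.05 (4.48%). The difference for Cer1 was -2.40 ± 0.41 (unadjusted p = 0.000117, adjusted p = 0.188 by limma), and for Timm9 the difference was 1.28 ± 0.18 (unadjusted p = 2.4e-05, adjusted p = 0.179). For Mixl1 it was -1.65 ± 0.74 (unadjusted p = 0.0467) and for T -1.37 ± 0.96 (unadjusted p = 0.183), each with an adjusted p of 1 by limma. The median log2 change of the streak list was -0.73 in the Evx1as experiment, 0.07 in EVX1, -0.46 in Lhx1os and 0.06 in Fendrr. The absolute levels differed between the controls as well: Mixl1 was at 19.6 FPKM in the Evx1as control and 82.1 FPKM in the EVX1 control, and Evx1 at 6.71 FPKM in the Evx1as control and 53.9 FPKM in the EVX1 control.

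**Figure D4:**
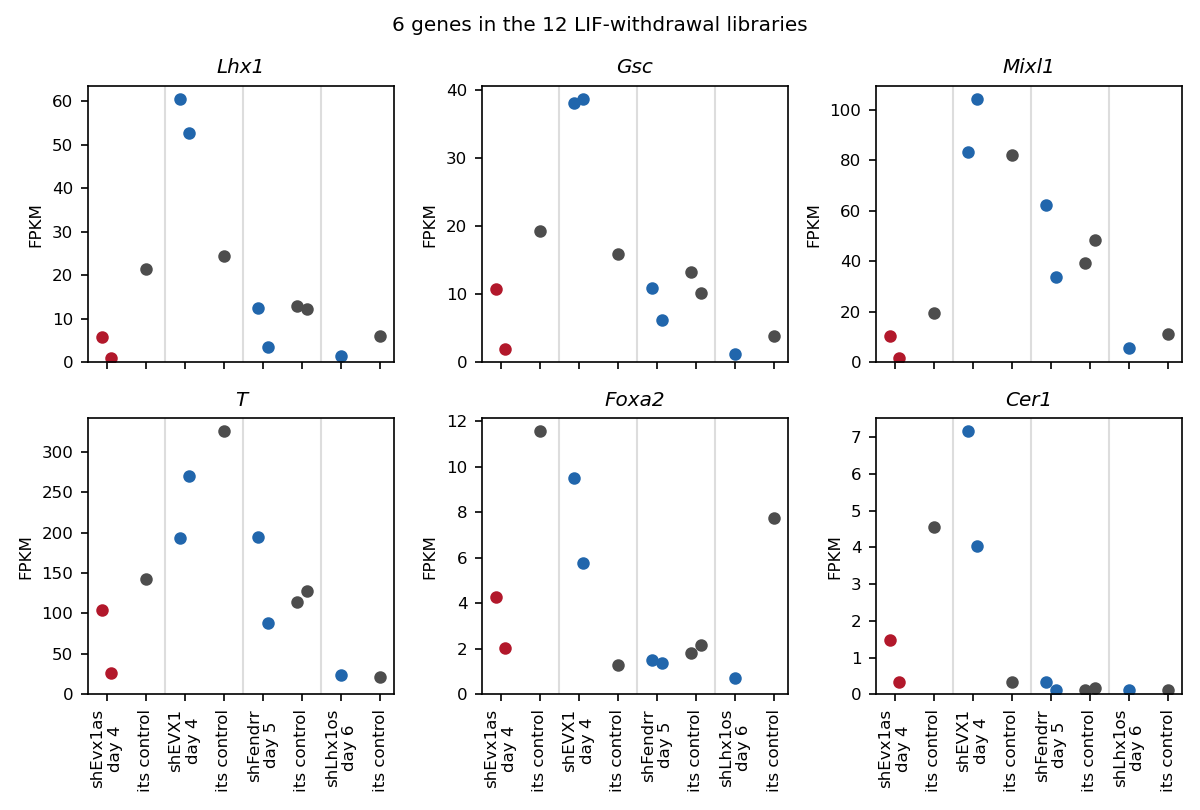
FPKM of Lhx1, Gsc, Mixl1, T, Foxa2 and Cer1 in the 12 LIF-withdrawal libraries, 1 point per library, with each knockdown left of its own control. Both shEvx1as points lie under their control in every panel, and the Evx1as control holds the highest Foxa2 value of all 12 while Cer1 is above 1 FPKM in the day-4 experiments only.

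Around the target on mm9 chromosome 6, 48 entries lay within 1 Mb and 21 of them were tested. None passed (0 by limma), 5 lay below the control in both shEvx1as libraries and 7 above it, and their median log2 change was 0.07. The shares over all entries were 26.3% below and 44.6% above. Hnrnpa2b1, which encodes an RNA-binding protein, was at 198 and 218 FPKM in shEvx1as and 178 FPKM in the control, and Tax1bp1, an autophagy receptor gene on the other side, was at 10.8 and 11.6 FPKM in shEvx1as and 8.14 FPKM in the control.

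**Figure D5:**
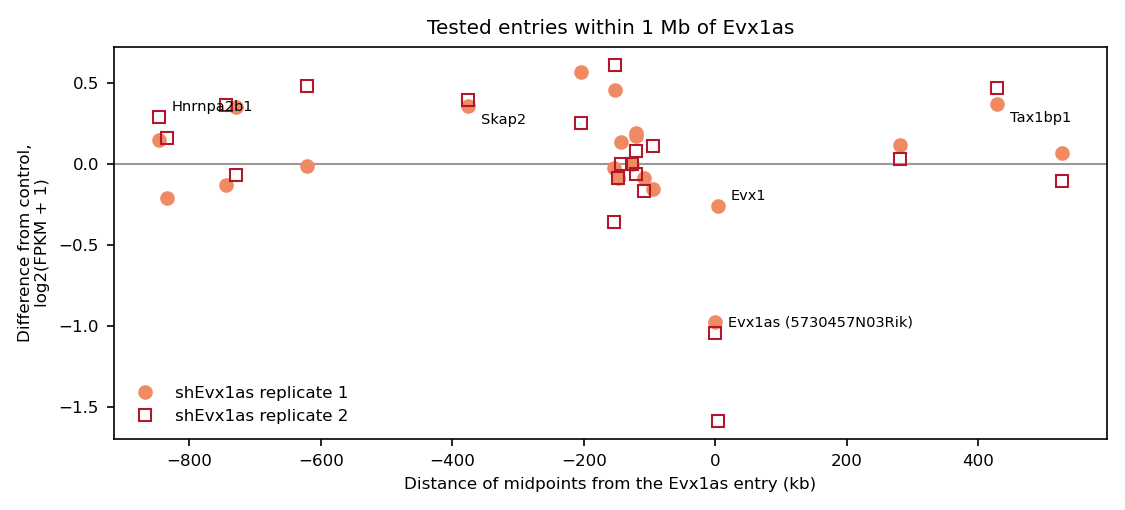
Difference from shCtrl_Evx1as on the log2(FPKM + 1) scale for the 21 tested entries within 1 Mb of the Evx1as entry, against the distance between midpoints in kb; filled circles are shEvx1as replicate 1 and open squares replicate 2. The Evx1as entry lies near -1 in both libraries and Evx1 is the lowest point in replicate 2, at -1.59.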

How the data were processed

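RNA was measured by RNA-seq in 19 libraries. Per the labels' protocols, mRNA was purified with Dynabeads and libraries were made with a TruSeq stranded kit. The submitters' processing notes name the tools CASAVA and TopHat2 2.0.11, and mm10 and mm9 as builds. The authors deposited FPKM values, 1 column per library, for 38424 entries; the quantifier, the annotation and the use of strand are not stated in those notes. Positions from the table are given as mm9, since it holds 116 entries on random chromosomes of that kind, with starts counted from 1. Read counts were not used here, so no sampling interval was computed.

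FPKM were analysed as log2(FPKM + 1), which understates the change of low genes. The fit used limma 3.58.1 under R 4.3.3 on the full set of 19 libraries, with a mean per group for 12 groups (variance prior with a trend, 7 residual degrees of freedom, two-sided, Benjamini-Hochberg over 14942 entries at 0.05), with single libraries assumed to vary like the pairs. With shEvx1as replicates apart, 6 degrees of freedom remained. The Evx1as and EVX1, Lhx1os and Fendrr experiments share no library, while both shEvx1as libraries share 1 control. Named were the target and Evx1, called entries, the 15 genes furthest below and above the control in both libraries with at least 5 FPKM in 1 of the 3, up to 6 members with the largest change in each of 34 lists, defining markers, the 10 largest differences each way between replicates, and neighbours within 1 Mb. Unnamed and predicted entries were left out of the rankings. Axin2, Lfng, Msgn1, Nodal, Nog, Rmrp, Tdgf1 and Wnt3 in the report, and Pkdcc, XLOC_010615, Dnmt3l, 2610019E17Rik and Wdr5 in the closing section, fell outside this rule and were chosen after their values were seen. Members and lists were chosen with earlier results of these data known. Promoters are RefSeq, GRCm38.p6. The test was tried on simulated data (200 changed entries of 14942, 5 draws, 4.51% of calls false). Alternatives are given in the closing section.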

Additional observations from a re-analysis of the deposited data

How the results depend on the processing

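Against shCtrl_Evx1as, 1 entry was called. The count was 0 with a pseudocount of 0.1, 0 with at least 5 FPKM in 2 libraries and 0 in the 6 day-4 libraries alone, 2 without a variance trend, 3 in the 12 LIF-withdrawal libraries, 59 without the filter, and 2 to 4 without 1 shEvx1as replicate. With shCtrl_EVX1 alone as the control, an alternative chosen after seeing the data, 909 were called, and line and knockdown cannot be told apart there. That control also turned XLOC_010621 (0.04), Foxa2 (0.80), Cer1 (0.44), Sox17 (0.24), Id1 (-0.031), Id2 (-0.028) and Herpud1 (-0.17) on the log2 scale, and the medians of 12 of 34 lists. The 27 entries 2-fold lower became 69 with both day-4 controls, 194 with shCtrl_EVX1 alone, 85 at 1.5-fold, and 48 to 143 without 1 replicate. The 31 higher became 77, 349 and 128 in the same order, 14 at 10 FPKM, and 48 to 145 without 1 replicate. Between replicates, 3 calls became 0 with the pseudocount of 0.1, 0 at 5 FPKM, 0 at day 4 alone and 162 without the filter. For the Evx1as minus EVX1 difference, 0 calls became 46 without the filter, 1 with median-of-ratios scaling, 3 without a trend and 0 to 3 without 1 replicate. Against the mean of the 3 other effects, 0 became 77 without the filter, 2 without a trend and 0 to 1 without 1 replicate. Median-of-ratios scaling kept the direction of all 42 genes tracked and of 29 of 34 lists. No paired analysis was possible because the experiment has 1 control library. The cause of these changes was not tested. Without read counts, the precision of low values is unknown.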

Other observations

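Interferon-response and cholesterol-synthesis genes were lower in shEvx1as replicate 2 than in replicate 1, some of them by small amounts. Replicate 2 lay below replicate 1 for 17 of 17 tested interferon genes and for 17 of 17 tested cholesterol genes, against 7024 of 14942 entries. Psmb8, an immunoproteasome subunit, was at 8.81 and 2.98 FPKM in shEvx1as and 11.9 FPKM in the control. Fdps, which makes farnesyl diphosphate, was at 126 and 92.5 FPKM in shEvx1as and 132 FPKM in the control. None of the genes of either list passed the adjusted test against the control. None passed between the replicates either, where the 3 entries that passed were unnamed loci. These lists are named out of 34 for this split, with the values known. Genes of 1 pair of libraries are not separate observations.

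Genes of the epithelial-mesenchymal transition lay below the control in both shEvx1as libraries for 8 of 16 and above it for 3 (median log2 change -0.11). The shares over all entries were 26.3% below and 44.6% above. Snai1, a repressor of E-cadherin, stood at 20.9 and 14.4 FPKM in shEvx1as and 28.8 FPKM in the control (unadjusted p = 0.0459, adjusted p = 1 by limma). Vim, an intermediate filament protein, was at 264 and 163 FPKM in shEvx1as and 266 FPKM in the control. Wdr5, a histone methyltransferase subunit, was at 47.6 and 48.2 FPKM in shEvx1as and 42.7 FPKM in the control.

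On chromosome 17, the unnamed locus XLOC_010615 (mm9, 83548456 to 83620582), whose span overlaps the start of Pkdcc, stood at 44.2 and 14.9 FPKM in shEvx1as and 125 FPKM in the control. Pkdcc, a secreted kinase gene, stood at 16.0 and 6.77 FPKM in shEvx1as and 24.7 FPKM in the control. 2610019E17Rik was at 6.41 and 10.5 FPKM in shEvx1as and listed at 0 in the control. Dnmt3l, a cofactor of de novo DNA methylation, was at 85.2 and 164 FPKM in shEvx1as and 86.6 FPKM in the control.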
